A study of Mus musculus with 6 samples.

Results

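The cell cycle genes examined here were 44 genes listed by name for their roles in G1 control (13 genes), DNA replication in S phase (12 genes) and G2 and mitosis (19 genes). All 44 were expressed highly enough to be tested, among 16048 genes in all. They were measured by RNA-seq in 3 FlncgKO and 3 control libraries from C57BL/6 mouse hearts at embryonic day 9.5. FlncgKO embryos carried a global deletion of *Flnc*, which encodes the actin cross-linker filamin C, and came from crosses of *Flnc* fl/fl mice with Sox2Cre mice, whose Cre recombines throughout the embryo itself. Controls were littermates, whose alleles at *Flnc* and Cre the labels do not give. The labels name whole hearts, whereas the study's methods mention hearts or isolated ventricles, and the number of hearts in each library is not stated. Nothing states which embryos shared a litter, so p-values measure the spread between these libraries only. The study also scored cardiomyocyte proliferation by staining sections for phosphorylated histone H3. It reported no difference between FlncgKO and control hearts at embryonic day 9.5, the stage of this RNA. At a later stage it reported a lower rate in FlncgKO hearts. The staining scored cardiomyocytes alone, whereas the RNA came from all cells of the tissue. Those cell counts are not analysed here, and the question taken from them is whether transcripts of the proliferation machinery differed between FlncgKO and control hearts.

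The embryonic heart grows largely through division of its cardiomyocytes, which later withdraw from the cell cycle. In G1, D-type cyclins bind Cdk4 or Cdk6, and E-type cyclins bind Cdk2. These kinases phosphorylate the retinoblastoma protein Rb1, which otherwise holds E2F transcription factors inactive, while Cdkn1b (p27) and Cdkn1c (p57) restrain the kinases. E2F factors then drive genes for replication, such as the Mcm helicase subunits. In G2 and mitosis, Cdk1 with cyclins A and B, the Aurora and Polo kinases, the spindle checkpoint and the anaphase-promoting complex act in order. Many promoters of mitotic genes carry CCAAT boxes, bound by NF-Y, and a cell cycle homology region (CHR), through which the DREAM complex keeps them silent in resting cells.

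Of the 44 genes, 35 had a promoter in the RefSeq table for GRCm38.p6, and the 250 bases before each start site were searched on both strands. Each gene was given 1 promoter, the nearest to the start of its transcript with most reads. It lay 539 bases from that start for *Mcm7*, 466 for *E2f1* and 247 for *Mad2l1*. The full table, used for comparison, holds more than 1 promoter for some genes. Promoters of 5 genes are printed below 5′ to 3′ on the gene's strand, with each motif match in capitals. *Ccnd3* is shown because it is the only gene of the 44 that passed the test, *Mcm5* and *Rrm2* as replication genes with and without an E2F word, and *Ccnb2* and *Cdc20* as mitotic genes that hold both CCAAT and CHR words. *Ccnd3* lies at chr17:47593217-47593466 (+), *Mcm5* at chr8:75109259-75109508 (+), *Rrm2* at chr12:24708004-24708253 (+), *Ccnb2* at chr9:70421555-70421804 (-) and *Cdc20* at chr4:118437344-118437593 (-).
Ccnd3: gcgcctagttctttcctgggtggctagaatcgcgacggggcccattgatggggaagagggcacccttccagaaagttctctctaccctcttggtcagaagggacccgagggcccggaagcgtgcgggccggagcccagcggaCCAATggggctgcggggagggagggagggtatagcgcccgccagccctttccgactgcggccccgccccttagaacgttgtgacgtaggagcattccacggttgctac
Mcm5: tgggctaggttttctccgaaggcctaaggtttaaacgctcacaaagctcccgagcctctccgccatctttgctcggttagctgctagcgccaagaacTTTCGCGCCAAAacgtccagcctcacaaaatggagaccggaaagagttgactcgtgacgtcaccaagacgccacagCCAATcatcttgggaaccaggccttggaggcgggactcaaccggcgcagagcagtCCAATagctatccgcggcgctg
Rrm2: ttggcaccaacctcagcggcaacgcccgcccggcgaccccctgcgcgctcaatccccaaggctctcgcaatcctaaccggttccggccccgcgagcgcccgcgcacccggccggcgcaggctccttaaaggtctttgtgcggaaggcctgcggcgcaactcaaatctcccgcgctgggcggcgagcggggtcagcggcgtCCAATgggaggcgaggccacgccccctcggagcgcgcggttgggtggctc
Ccnb2: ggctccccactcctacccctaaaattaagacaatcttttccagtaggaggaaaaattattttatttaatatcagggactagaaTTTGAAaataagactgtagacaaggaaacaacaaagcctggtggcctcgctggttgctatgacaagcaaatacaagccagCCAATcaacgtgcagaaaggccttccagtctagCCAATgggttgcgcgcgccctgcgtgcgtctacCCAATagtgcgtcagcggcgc
Cdc20: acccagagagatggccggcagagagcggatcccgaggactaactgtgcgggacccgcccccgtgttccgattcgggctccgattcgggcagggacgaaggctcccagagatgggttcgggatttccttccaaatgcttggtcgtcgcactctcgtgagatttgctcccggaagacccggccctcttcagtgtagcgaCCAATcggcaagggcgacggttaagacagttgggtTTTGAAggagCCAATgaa

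The word searched for NF-Y was CCAAT. The CHR was searched as TTTGAA, and E2F as any of 4 words, namely TTTCCCGC or TTTCGCGC or TTTGCCGC or TTTGGCGC. In *Mcm5* the capitals TTTCGCGCCAAA hold 2 overlapping E2F words, TTTCGCGC on the gene's strand and TTTGGCGC on the other. CCAAT was found in 26 of the 35 promoters (74.3%), against 33.8% of all 32851 promoters in the table. By phase, it was found in 14 of 16 G2 and mitosis promoters, 8 of 11 S phase promoters and 4 of 8 G1 promoters. TTTGAA was found in 7 of 16 G2 and mitosis promoters (43.8%), 1 of 11 S phase promoters and 0 of 8 G1 promoters, against 16% of all promoters. E2F words were found in 4 of 11 S phase promoters (36.4%), 1 of 16 G2 and mitosis promoters and 1 of 8 G1 promoters, against 1.86% of all promoters. A match describes the letters of these windows and is not a binding site.

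Libraries held 19208859 to 23123255 estimated counts. *Flnc* itself had 127, 111 and 240.0 CPM (counts per 1000000 counts of the scaled library) in FlncgKO hearts, against 844, 623 and 746 CPM in control hearts, so no FlncgKO library overlapped a control one. Its log2 fold change was -2.21 (SE 0.353), with an adjusted p of 0.0656 in edgeR and 9.94e-07 in DESeq2. All 10 cardiomyocyte markers were present, and their sum was 33301 to 38706 CPM in FlncgKO hearts and 36213 to 41175 CPM in control hearts. The sum of 10 platelet and megakaryocyte markers was 223 to 1134 CPM in FlncgKO hearts and 71.2 to 106 CPM in control hearts. The cardiomyocyte sums thus overlapped between the groups, while the platelet sum was higher in every FlncgKO library than in any control library. Single cardiomyocyte markers differed in either direction. *Myh6* (log2 fold change -0.43) and *Tnnt2* (-0.17) were lower and *Myh7* (0.35) higher without overlap, and the others of the 10 overlapped. The sum of 10 erythroid markers was 7563 to 12461 CPM in FlncgKO hearts and 3100.1 to 8989.7 CPM in control hearts. The 10 leukocyte markers summed to 27 to 36.5 CPM in FlncgKO hearts and 7.72 to 17.9 CPM in control hearts. Only 6 of them were tested, with 4 positive and 2 negative log2 fold changes, from -0.88 to 3.75. The sum of 4 Y-linked genes was 3.88 to 80.7 CPM in FlncgKO hearts and 117 to 139.7 CPM in control hearts, and was under 5 CPM in 2 FlncgKO libraries alone. No marker of these lists was at 0 in every library. In bulk RNA, fewer cells of a type and less RNA per cell cannot be told apart.

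Most cell cycle genes differed little between FlncgKO and control hearts. With a threshold of 0.05 on the adjusted p over all 16048 genes, 1 of the 44 genes was higher, *Ccnd3*, and 0 were lower, where 1.06% of all genes tested were called higher and 0.249% lower (edgeR). Before adjustment, 3 had a p under 0.05 on the higher side and 8 on the lower side, where 13.3% and 8.84% of all genes did. DESeq2 called 2 higher, *Ccnd3* and *Rb1*, and 2 lower, *Ccnd2* and *Kif20a*, against 6.22% higher and 2.27% lower of all genes it tested. The 44 log2 fold changes ran from -0.34 (*Ccnd2*) to 0.83 (*Rb1*), with a median of -0.08, against 0.01 over all genes tested. Of the 44, 32 had a negative value, where 48.4% of all genes tested did. For 38 of the 44, the 95% interval lay within 0.5 of 0 on the log2 scale, as it did for 53.7% of all genes. The FlncgKO and control libraries did not overlap for 4 genes on the higher side and 15 on the lower side, where 15.7% and 14.1% of all genes did so (29.7% in either direction).

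**Figure D1:**
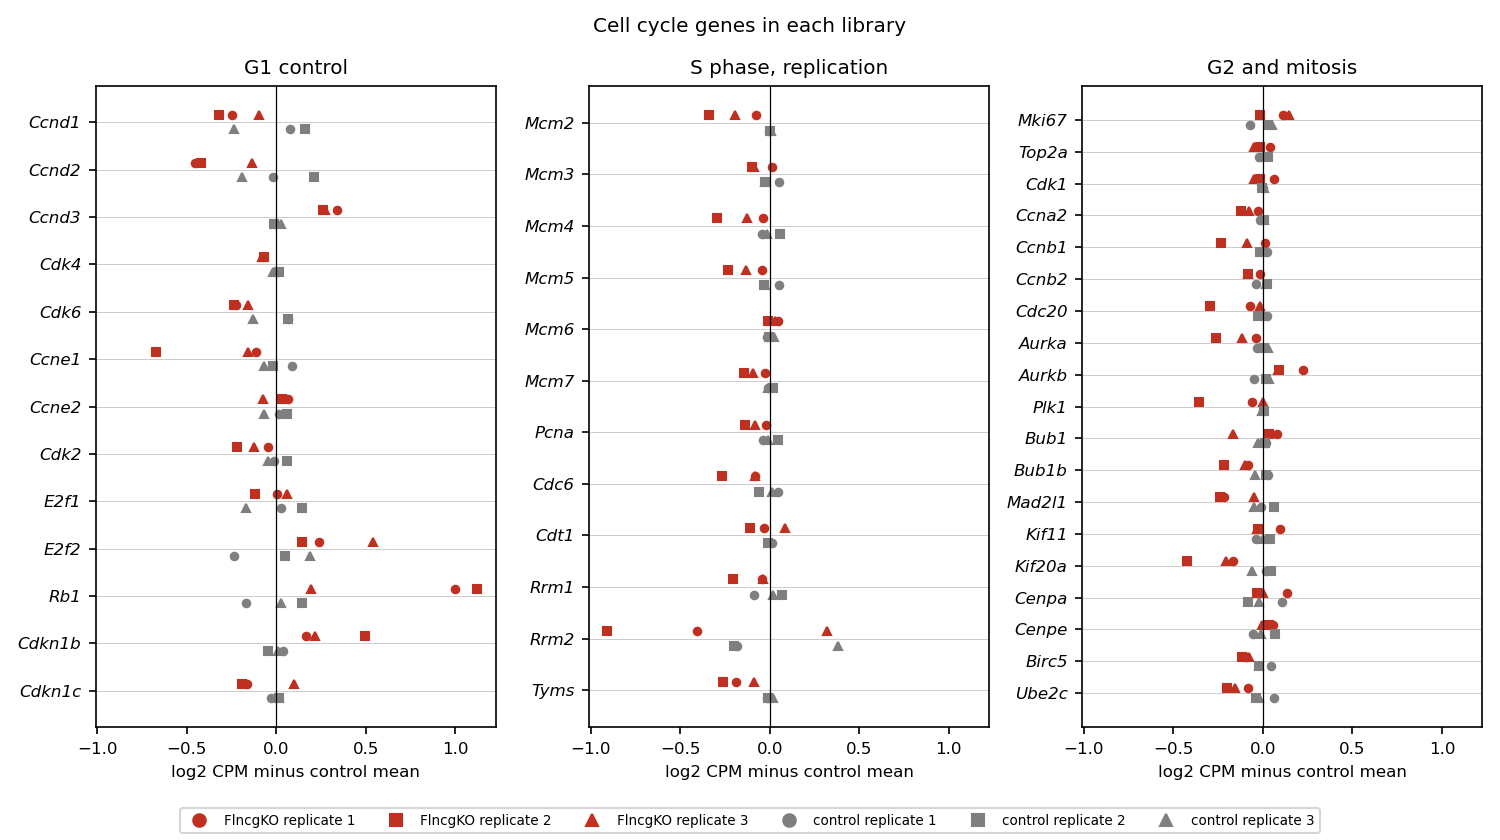
Log2 CPM of each of the 44 cell cycle genes in each library minus the control mean, by phase; red symbols are FlncgKO libraries and grey symbols control libraries, with a symbol shape for each replicate. Most points lie near 0, *Rb1* has FlncgKO replicates 1 and 2 far to the right, and *Rrm2* has the widest spread on the left, with FlncgKO replicate 2 at -0.907, while its replicate 3 libraries lie right of 0.

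The G1 control genes held the largest values in either direction. *Ccnd3* encodes cyclin D3, a D-type cyclin. Its gene (ENSMUSG00000034165) lies at chr17:47505051-47599691 (+), and it had 339, 321 and 324 CPM in FlncgKO hearts, against 267, 266 and 273 CPM in control hearts. Every FlncgKO library was above every control library. Its log2 fold change was 0.29 (SE 0.045, 95% interval 0.18 to 0.39), a fold of 1.22, with an adjusted p of 0.0377 in edgeR and 1.76e-05 in DESeq2. The exact permutation test over the 6 libraries gave p = 0.1, two-sided, the smallest it can give. The call was lost in edgeR without any of 5 libraries, at adjusted p of 0.216 without control replicate 1, 0.201 without control replicate 2, 0.0697 without control replicate 3, 0.0829 without FlncgKO replicate 1 and 0.0732 without FlncgKO replicate 2. Without FlncgKO replicate 3 it stayed, at 0.0144. DESeq2 kept the call without each library in turn, at adjusted p of 6.82e-06 to 0.0011. In these edgeR and DESeq2 fits the log2 fold change was 0.25 to 0.30. A Y-linked covariate, which largely followed the groups, gave an adjusted p of 0.209 (log2 fold change 0.35). Over all genes, the fit with this covariate called 0 higher and 0 lower. Transcript length offsets gave 0.0696 (0.26), in a fit that called 63 higher and 13 lower over all genes.

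A single transcript, ENSMUST00000182209, held 95.3% to 97.2% of the *Ccnd3* reads in all 6 libraries, and it starts 3 bases from the RefSeq start site at which the printed promoter ends. The 3' end of *Ccnd3* overlaps *Bysl* on the other strand, and whether the authors' counting used strand is not given. *Bysl* had 58.8, 43.6 and 62.6 CPM in FlncgKO hearts, against 75.3, 71.6 and 73.1 CPM in control hearts. The platelet and leukocyte marker sums were also higher in every FlncgKO library than in every control library, although single leukocyte markers went either way. The part of these cells in the *Ccnd3* difference was not tested. In FlncgKO replicates 1, 2 and 3 the platelet sum was 1134, 703 and 223 CPM, and the leukocyte sum was 35.5, 27 and 36.5 CPM.

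The other D-type cyclins did not pass the test. *Ccnd2* had 754, 773 and 939.7 CPM in FlncgKO hearts, against 1021, 1195 and 906 CPM in control hearts, and the highest FlncgKO library lay above the lowest control library. Its log2 fold change was -0.34 (SE 0.125, adjusted p 0.182), and DESeq2 gave an adjusted p of 0.0321. That call was lost without control replicate 1 (adjusted p 0.189), control replicate 2 (0.355), FlncgKO replicate 1 (0.21) or FlncgKO replicate 2 (0.252). *Ccnd1* had 83.9, 79.9 and 93.1 CPM in FlncgKO hearts, against 105, 112 and 84.6 CPM in control hearts (log2 fold change -0.23, adjusted p 0.276). In both genes control replicate 3 was the lowest control library.

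*Rb1* had the largest fold change of the 44 genes. It had 27.8, 30.2 and 15.8 CPM in FlncgKO hearts, against 12.3, 15.3 and 14.1 CPM in control hearts, so the groups were separated by FlncgKO replicate 3 only narrowly. The log2 fold change was 0.83 (SE 0.248, 95% interval 0.22 to 1.43), with an adjusted p of 0.13 in edgeR and 0.0101 in DESeq2. Without FlncgKO replicate 3 it was 1.06, with an adjusted p of 0.00185 in edgeR and 2.64e-10 in DESeq2. Without any other library the DESeq2 call was lost, at adjusted p of 0.165, 0.061 and 0.0556 without control replicates 1, 2 and 3, and of 0.134 and 0.225 without FlncgKO replicates 1 and 2. *Rb1* overlaps *Lpar6* and *Rcbtb2* on the other strand, whose log2 fold changes were 0.29 (adjusted p 0.241) and -0.08 (adjusted p 0.583). FlncgKO replicate 3 also had the lowest platelet marker sum of the FlncgKO libraries, and the part of these cells in the *Rb1* values was not tested.

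*Cdkn1b*, the p27 inhibitor, had 58.2, 73 and 60.3 CPM in FlncgKO hearts, against 53.3, 50.2 and 52.1 CPM in control hearts. All 3 FlncgKO libraries were above all 3 control libraries, by a log2 fold change of 0.30 (SE 0.089, adjusted p 0.112). *Cdkn1c*, the p57 inhibitor, had 744, 730.3 and 893 CPM in FlncgKO hearts, against 817, 841 and 842 CPM in control hearts, and the groups overlapped (log2 fold change -0.08, adjusted p 0.61). *Cdk6*, a partner of the D-type cyclins, had 50.2, 49.7 and 52.5 CPM in FlncgKO hearts, against 61.4, 61.3 and 53.6 CPM in control hearts. Its log2 fold change was -0.21 (SE 0.068, adjusted p 0.132), with no overlap between groups. *Cdk4*, the other partner, had 383, 385 and 381 CPM in FlncgKO hearts, against 406, 407 and 398 CPM in control hearts, a log2 fold change of -0.08 (adjusted p 0.322).

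The rest of the G1 genes lay closer to 0 or varied more between libraries. *Ccne1* encodes cyclin E1 and had 44.6, 30.2 and 43.2 CPM in FlncgKO hearts, against 51.1, 47.7 and 46 CPM in control hearts (log2 fold change -0.30, adjusted p 0.297). *Ccne2* encodes cyclin E2 and had 54.7, 53.3 and 49.5 CPM in FlncgKO hearts, against 52.6, 54.4 and 49.7 CPM in control hearts (0.01, adjusted p 0.96). *Cdk2*, the partner of both, had 91.7, 81.5 and 87 CPM in FlncgKO hearts, against 94.1, 98.8 and 92 CPM in control hearts (-0.13, adjusted p 0.274). The FlncgKO libraries lay below the control libraries for *Ccne1* and *Cdk2* and spanned the control range for *Ccne2*. Of the activator E2F genes, *E2f1* was at 28.8 to 32.6 CPM in FlncgKO hearts and 27.8 to 34.7 CPM in control hearts (-0.02, adjusted p 0.912). *E2f2* was at 11 to 14.5 CPM in FlncgKO hearts and 8.42 to 11.4 CPM in control hearts, which overlapped (0.31, adjusted p 0.288).

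**Figure D2:**
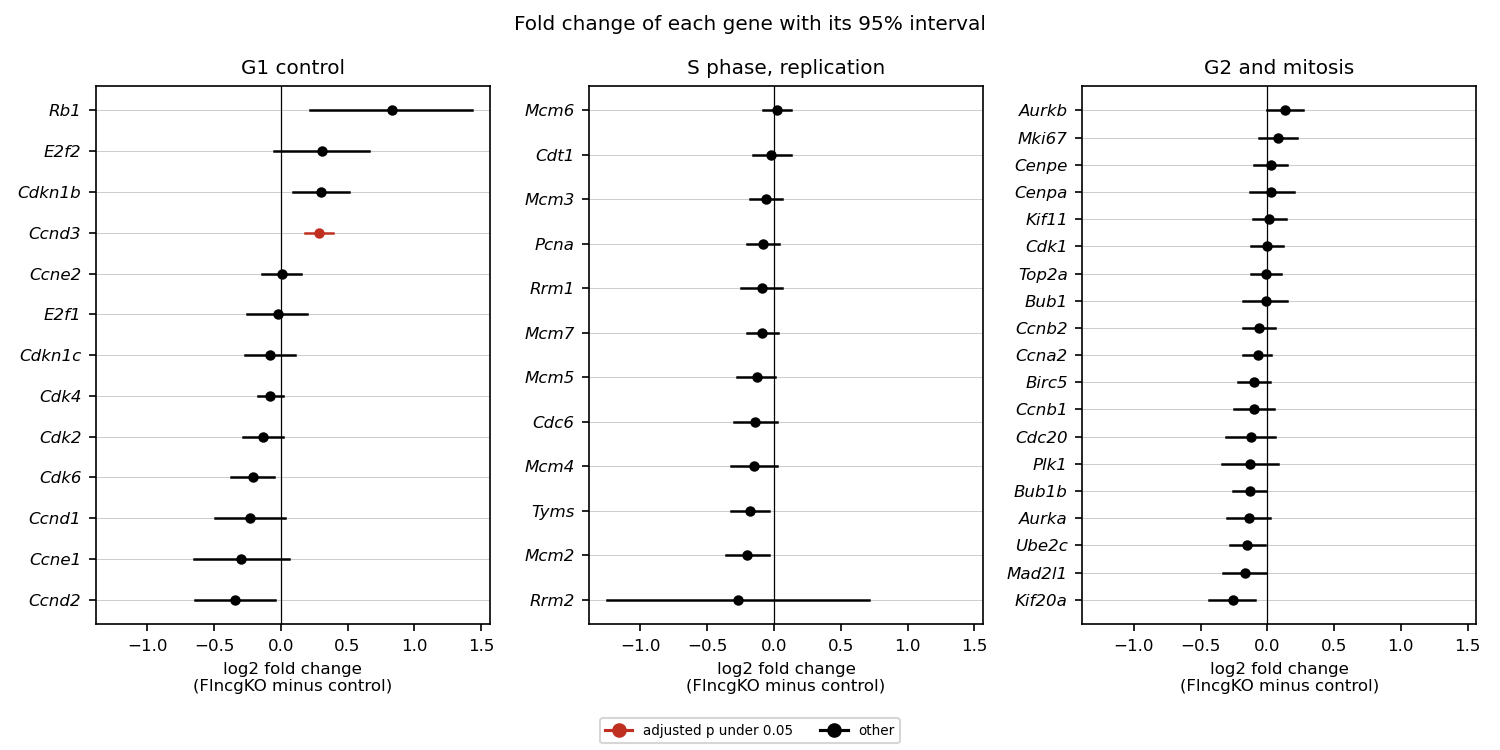
Log2 fold change (FlncgKO minus control) of each of the 44 genes with its 95% interval, by phase; red marks an adjusted p under 0.05 and black any other. Only *Ccnd3*, at 0.29, is red, and *Rrm2* has the widest interval, from -1.25 to 0.71.

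None of the 12 S phase genes passed the test in either direction, where 1.06% of all genes were called higher and 0.249% lower. Before adjustment, the edgeR p was under 0.05 for 0 genes on the higher side and for *Tyms* and *Mcm2* on the lower side. Over all genes, 13.3% had such a p on the higher side and 8.84% on the lower side. DESeq2 called 0, against 6.22% higher and 2.27% lower of all genes it tested. Of the 12 log2 fold changes 11 were negative, with a median of -0.11 and a range of -0.27 to 0.02. *Mcm2*, a subunit of the replicative helicase, had 214, 179 and 197 CPM in FlncgKO hearts, against 225, 226 and 227 CPM in control hearts. All FlncgKO libraries lay below the tightly grouped control libraries, with a log2 fold change of -0.20 (SE 0.068, adjusted p 0.147).

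*Mcm5* had 168, 148 and 159 CPM in FlncgKO hearts, against 180.1, 170.1 and 171 CPM in control hearts (log2 fold change -0.13, SE 0.061, adjusted p 0.249). *Mcm4* had 168, 141 and 159 CPM in FlncgKO hearts, against 168, 180.0 and 171 CPM in control hearts (-0.15, SE 0.073, adjusted p 0.278). In both, FlncgKO replicate 2 was the lowest library, and FlncgKO replicate 1 was near the control libraries. Of the other helicase subunits, *Mcm3* was at 186 to 202 CPM in FlncgKO hearts and 196 to 207 CPM in control hearts (-0.06, adjusted p 0.562). *Mcm6* was at 212 to 221 CPM in FlncgKO hearts and 211 to 217 CPM in control hearts (0.02, adjusted p 0.807). *Mcm7* was at 189 to 205 CPM in FlncgKO hearts and 208 to 212 CPM in control hearts (-0.09, adjusted p 0.332). Among these 3, only the *Mcm7* groups did not overlap. Of the genes that load the helicase, *Cdc6* had 45.8, 40.3 and 45.9 CPM in FlncgKO hearts, against 50.1, 46.5 and 49 CPM in control hearts (-0.14, adjusted p 0.278). *Cdt1* was at 53.3 to 61.1 CPM in FlncgKO hearts and 57.1 to 58 CPM in control hearts (-0.02, adjusted p 0.91). The FlncgKO libraries of *Cdt1* thus lay on either side of the control libraries, whereas those of *Cdc6* lay below them. *Pcna*, the sliding clamp of the polymerases, was at 156 to 169 CPM in FlncgKO hearts and 168 to 177 CPM in control hearts (-0.08, adjusted p 0.404).

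Among the genes that supply nucleotides, *Tyms*, thymidylate synthase, had 50.2, 47.6 and 53.8 CPM in FlncgKO hearts, against 56.6, 56.9 and 58 CPM in control hearts. Its groups did not overlap, and its log2 fold change was -0.18 (SE 0.059, adjusted p 0.142). *Rrm1*, the large subunit of ribonucleotide reductase, was at 251 to 283 CPM in FlncgKO hearts and 273 to 304 CPM in control hearts (-0.09, adjusted p 0.443). *Rrm2*, the small subunit, had 219, 155 and 363 CPM in FlncgKO hearts, against 256, 253 and 378 CPM in control hearts. The replicate 3 library was the highest of each group, and the log2 fold change of -0.27 had an SE of 0.374 (adjusted p 0.728). Its coefficient of variation was 43.4% in FlncgKO hearts and 24.2% in control hearts, the highest of the 44 genes in each group. The replicate 3 libraries also had the highest erythroid marker sum of their groups, 12461 CPM in FlncgKO and 8989.7 CPM in control, and the part of these cells in the *Rrm2* values was not tested.

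None of the 19 G2 and mitosis genes passed the test in either direction, where 1.06% of all genes were called higher and 0.249% lower. Before adjustment, the edgeR p was under 0.05 for 0 genes on the higher side and 4 on the lower side. Such a p was found for 13.3% of all genes on the higher side and 8.84% on the lower side. DESeq2 called only *Kif20a*, as lower, against 6.22% higher and 2.27% lower of all genes it tested. The 19 log2 fold changes ran from -0.26 to 0.13 with a median of -0.07, and every 95% interval lay within 0.5 of 0. *Mki67*, which encodes the Ki-67 antigen of cycling cells, had 595, 545 and 609 CPM in FlncgKO hearts, against 524, 562 and 571 CPM in control hearts. The groups overlapped, and the log2 fold change was 0.08 (95% interval -0.06 to 0.22, adjusted p 0.485).

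*Top2a*, topoisomerase II alpha, had 634, 609 and 596 CPM in FlncgKO hearts, against 608, 629 and 614 CPM in control hearts (log2 fold change -0.01, 95% interval -0.12 to 0.10). *Cdk1*, the mitotic kinase, had 158, 149.6 and 146 CPM in FlncgKO hearts, against 151, 151 and 152 CPM in control hearts (0.00, 95% interval -0.12 to 0.12). Changes as large as 0.5 on the log2 scale lay outside these intervals. Of its cyclins, *Ccna2* had 229, 215 and 221 CPM in FlncgKO hearts, against 231, 235 and 235 CPM in control hearts (-0.07, adjusted p 0.383). *Ccnb1* had 218, 184 and 204 CPM in FlncgKO hearts, against 220.1, 214 and 215 CPM in control hearts (-0.10, adjusted p 0.422). For both cyclins FlncgKO replicate 2 was the lowest library. *Ccnb2* was at 60.2 to 63.3 CPM in FlncgKO hearts and 62.1 to 64.9 CPM in control hearts (-0.06, adjusted p 0.525).

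*Kif20a*, a kinesin of the central spindle, had the smallest p of the G2 and mitosis genes. It had 179.9, 150.4 and 175 CPM in FlncgKO hearts, against 205, 208 and 193 CPM in control hearts. The groups did not overlap, and the log2 fold change was -0.26 (SE 0.075, 95% interval -0.44 to -0.09), with an adjusted p of 0.104 in edgeR and 0.0227 in DESeq2. The DESeq2 call was lost without control replicate 1 (adjusted p 0.185), control replicate 2 (0.207) or FlncgKO replicate 2 (0.0541). *Ube2c*, the ubiquitin-conjugating enzyme of the anaphase-promoting complex, had 152, 139.8 and 144 CPM in FlncgKO hearts, against 168, 157 and 159 CPM in control hearts. Its log2 fold change was -0.15 (SE 0.055, adjusted p 0.176), again with no overlap. *Cdc20*, an activator of the same complex, was at 82.5 to 100.2 CPM in FlncgKO hearts and 99.6 to 103 CPM in control hearts (-0.12, adjusted p 0.392).

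Of the spindle checkpoint genes, *Bub1b* had 158, 145 and 157 CPM in FlncgKO hearts, against 171, 169.6 and 163 CPM in control hearts (log2 fold change -0.13, SE 0.055, adjusted p 0.211). *Mad2l1* had 72.7, 71.8 and 81.8 CPM in FlncgKO hearts, against 84.1, 88.5 and 81.7 CPM in control hearts (-0.17, SE 0.069, adjusted p 0.208). FlncgKO replicate 3 of *Mad2l1* was level with the lowest control library. *Bub1* was at 101 to 119.7 CPM in FlncgKO hearts and 111 to 115 CPM in control hearts (-0.01, adjusted p 0.931).

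Among the mitotic kinases, *Aurkb*, which phosphorylates histone H3 in mitosis, had 67.3, 61.3 and 61.2 CPM in FlncgKO hearts, against 55.8, 58.3 and 59 CPM in control hearts. It was the only G2 and mitosis gene whose FlncgKO libraries all lay above the control libraries, with a log2 fold change of 0.13 (95% interval -0.00 to 0.27, adjusted p 0.235). *Aurka*, which acts at the spindle poles, had 98.3, 84.2 and 92.9 CPM in FlncgKO hearts, against 98.7, 101 and 103 CPM in control hearts (-0.14, adjusted p 0.282). *Plk1*, the Polo kinase, had 102, 83.1 and 106 CPM in FlncgKO hearts, against 106, 107 and 106 CPM in control hearts (-0.13, adjusted p 0.444). In both, FlncgKO replicate 2 stood below the other libraries. *Birc5*, survivin, which partners Aurora B, was at 81 to 83.2 CPM in FlncgKO hearts and 86.3 to 90.6 CPM in control hearts (-0.10, adjusted p 0.314). *Kif11*, a spindle motor, was at 170.1 to 186 CPM in FlncgKO hearts and 169 to 179 CPM in control hearts (0.01, adjusted p 0.921). The centromere genes overlapped between the groups as well. *Cenpa* was at 145 to 163 CPM in FlncgKO hearts and 140.4 to 160.0 CPM in control hearts (0.03, adjusted p 0.825). *Cenpe* was at 127 to 133 CPM in FlncgKO hearts and 123 to 134 CPM in control hearts (0.03, adjusted p 0.812).

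**Figure D3:**
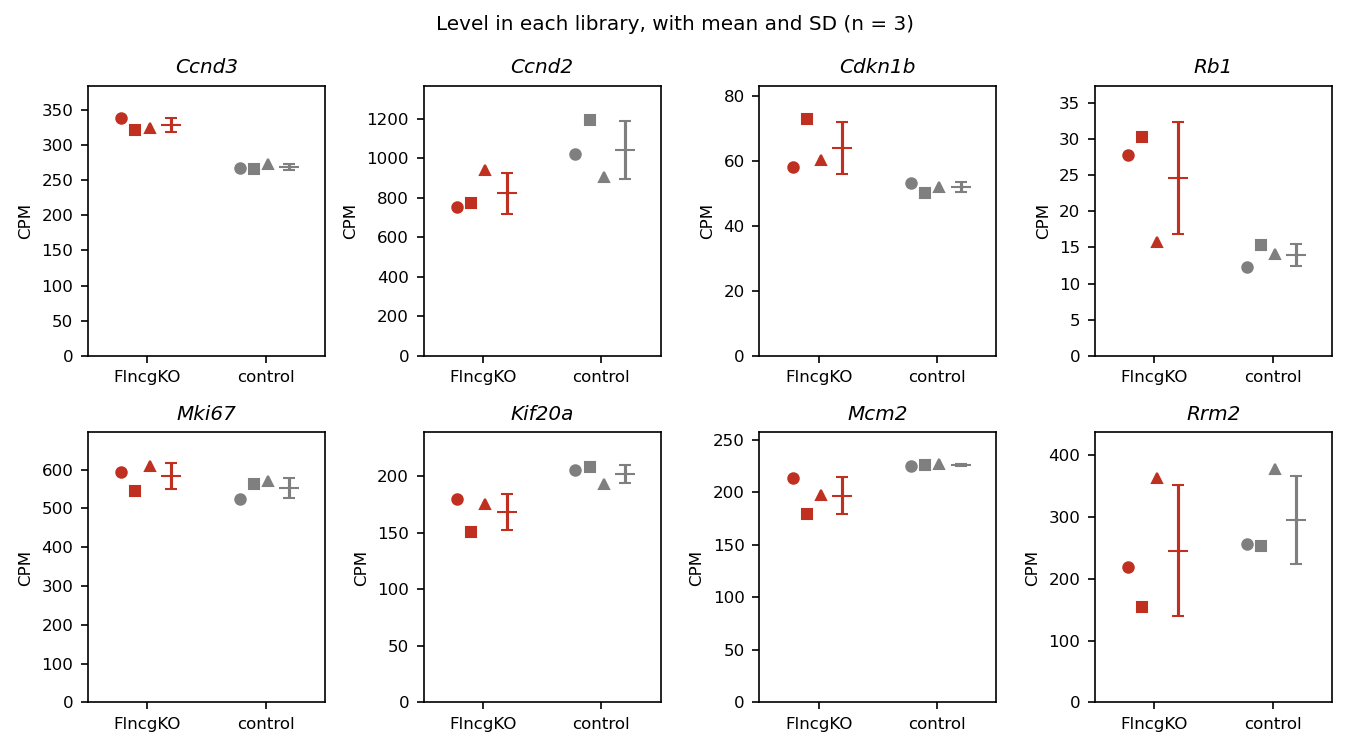
CPM of 8 of the cell cycle genes in each FlncgKO (red, left) and control (grey, right) library, with a symbol shape for each replicate and the mean and SD of 3 libraries beside the points. *Ccnd3* is at 321 to 339 CPM in FlncgKO and 266 to 273 CPM in control, and *Mki67* overlaps between the groups.

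The small negative values of the S phase and mitosis genes came unevenly from the FlncgKO libraries. The median over the 12 S phase genes of log2 CPM minus the control mean was -0.04, -0.22 and -0.09 in FlncgKO replicates 1, 2 and 3, against -0.01, -0.01 and 0.00 in the control replicates. Over the 19 G2 and mitosis genes it was -0.01, -0.12 and -0.05 in FlncgKO hearts, against -0.00, 0.01 and -0.01 in control hearts. Over the 13 G1 genes it was -0.05, -0.12 and -0.08 in FlncgKO hearts, against 0.01, 0.06 and -0.04 in control hearts. Over all 16048 genes no library was more than 0.02 from 0. FlncgKO replicate 2 was thus the lowest in each phase. It was the lowest of the 6 libraries for 22 of the 31 S phase and mitosis genes (71%), against 24.8% of all genes, and the highest for 0 of them, against 24.1% of all genes.

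Without FlncgKO replicate 2, the median log2 fold change was -0.06 for the S phase genes and -0.04 for the G2 and mitosis genes, and 23 of the 31 values were negative, against 24 with it. With a Y-linked covariate the medians were -0.03 and -0.00, with 20 of the 31 negative. FlncgKO replicates 2 and 3 had Y-linked sums of 3.88 and 4.28 CPM, against 80.7 CPM in FlncgKO replicate 1 and 117 to 139.7 CPM in control hearts. The covariate thus largely followed the groups, so it and genotype cannot be told apart in this fit. Over all genes the fit called 0 higher and 0 lower. FlncgKO replicate 2 also had the highest endothelial marker sum (1253 CPM, with 1039.8 and 1072 CPM in the other FlncgKO libraries and 923 to 1099 CPM in control hearts). Their part in these values was not tested.

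**Figure D4:**
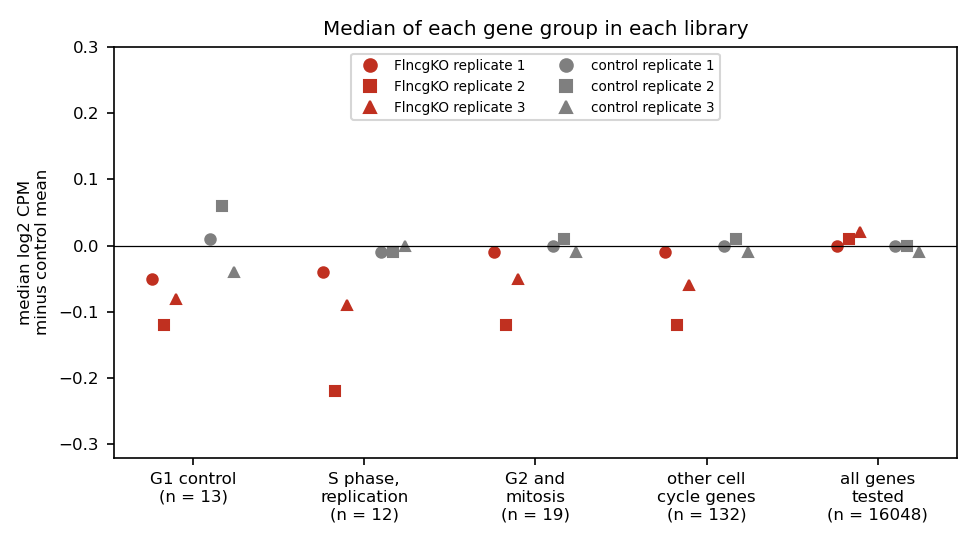
Median of log2 CPM minus the control mean over each group of genes in each library; red symbols are FlncgKO and grey symbols control, with a symbol shape for each replicate. FlncgKO replicate 2 (red square) is lowest in the 3 phases, at -0.12, -0.22 and -0.12, and also for the other cell cycle genes, while all genes tested stay within 0.02 of 0.

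Levels were compared between genes by TPM, the authors' transcript abundances, which allow for transcript length. *Cdkn1c* was the most abundant of the 44, at 1027 ± 93 TPM in FlncgKO hearts and 1149 ± 79.4 TPM in control hearts (SD, n = 3 each). *Cdk4* followed at 607 ± 20.1 TPM in FlncgKO hearts and 629.9 ± 27 TPM in control hearts. By the mean over all 6 libraries *Ube2c*, *Cdk1*, *Ccnd3* and *Top2a* came next, with group means of 278 to 338 TPM in FlncgKO hearts and 269 to 376 TPM in control hearts, although in control hearts *Ccnd2* lay above *Ccnd3* and *Top2a*. *Ccnd3* averaged 325 ± 6.19 TPM in FlncgKO hearts and 269 ± 5.01 TPM in control hearts, while *Ccnd2* averaged 226 ± 27.8 and *Ccnd1* 40.0 ± 1.31 TPM in FlncgKO hearts, against 284 ± 39.8 and 44.9 ± 6.52 TPM in control hearts. *Ccnd3* and *Ccnd2* therefore stood within their spread of each other in control hearts, whereas in FlncgKO hearts every *Ccnd3* value was above every *Ccnd2* value. By the same mean the lowest levels were those of *E2f2*, at 4.62 ± 0.701 TPM in FlncgKO hearts and 3.68 ± 0.54 TPM in control hearts, and of *Rb1*, at 12.6 ± 3.83 TPM in FlncgKO hearts and 6.19 ± 0.736 TPM in control hearts. In FlncgKO hearts *Cdk6*, at 10.5 ± 0.723 TPM, was below *Rb1*.

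The pathway was followed further in 135 other cell cycle genes, of which 132 were tested and *Cdkn2a*, *Cdkn2b* and *Aurkc* were too low. None passed the test in edgeR, where 1.06% of all genes were called higher and 0.249% lower. Before adjustment the p was under 0.05 for 7 on the higher side and 18 on the lower side. Over all genes, 13.3% and 8.84% had such a p. Their median log2 fold change was -0.07, and 95 of the 132 values were negative, where 48.4% of all genes tested had a negative value. With a Y-linked covariate their median was -0.01, with 67 of the 132 negative. Without FlncgKO replicate 2 it was -0.04, with 89 negative. The per-library medians were -0.01, -0.12 and -0.06 in FlncgKO hearts, against -0.00, 0.01 and -0.01 in control hearts. The 41 other replication genes had a median of -0.08, with 0 higher and 8 lower at the unadjusted threshold, and the 52 other mitosis genes a median of -0.07, with 1 higher and 5 lower. The 4 tested CDK inhibitors of this list had values from 0.02 to 0.68, with a median of 0.23, and 0 were called in edgeR. For 2 of them the FlncgKO libraries were higher without overlap, where 15.7% of all genes were.

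*Cdkn1a*, the p21 inhibitor, had 21.2, 29.4 and 18.1 CPM in FlncgKO hearts, against 13, 12.8 and 17.2 CPM in control hearts. The groups did not overlap, and the log2 fold change was 0.68 (SE 0.206), with an adjusted p of 0.127 in edgeR and 0.0252 in DESeq2. The DESeq2 call was lost without control replicate 1 (adjusted p 0.24), control replicate 2 (0.239), FlncgKO replicate 1 (0.0846) or FlncgKO replicate 2 (0.285). *Foxm1*, a transcription factor of mitotic genes, had 95.7, 83.3 and 94.5 CPM in FlncgKO hearts, against 102, 105 and 96.9 CPM in control hearts (-0.15, adjusted p 0.252), with no overlap. *Mybl2*, its partner in the same programme, was at 81.1 to 96 CPM in FlncgKO hearts and 79 to 93 CPM in control hearts (0.06, adjusted p 0.744). *Haspin*, another histone H3 kinase of mitosis, had 16, 10.9 and 15.9 CPM in FlncgKO hearts, against 16.6, 16.2 and 14.8 CPM in control hearts (-0.16, adjusted p 0.595).

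DESeq2 called 5 of these other genes higher, *Cdkn1a*, *Ccng2*, *Cdc25b*, *Myc* and *Cit*, and 2 lower, *Skp2* and *Racgap1*, where it called 6.22% of all genes higher and 2.27% lower. All but *Cdkn1a* were named after their values were seen. *Myc*, a transcription factor of growth, had 44.2, 43.9 and 40.4 CPM in FlncgKO hearts, against 21.2, 19.4 and 32.2 CPM in control hearts (log2 fold change 0.82, SE 0.193). Its adjusted p was 0.0871 in edgeR and 0.000466 in DESeq2. With each library left out, the adjusted p of *Myc* was 0.0189 to 0.286 in edgeR and 2.08e-15 to 0.0364 in DESeq2. *Ccng2*, a cyclin associated with cell cycle arrest, had 64.1, 91.3 and 42 CPM in FlncgKO hearts, against 30.9, 30.9 and 35.8 CPM in control hearts (1.02, SE 0.295). Its adjusted p was 0.138 in edgeR and 0.000382 in DESeq2. With each library left out, the adjusted p of *Ccng2* was 0.00997 to 0.347 in edgeR and 5.92e-12 to 0.0313 in DESeq2. *Skp2*, which targets p27 for degradation, had 53.7, 52.5 and 58.1 CPM in FlncgKO hearts, against 68.1, 70.1 and 62.8 CPM in control hearts (-0.29, SE 0.065). Its adjusted p was 0.0725 in edgeR and 0.0111 in DESeq2, and the DESeq2 call was lost without control replicate 1 (adjusted p 0.109), control replicate 2 (0.119), FlncgKO replicate 1 (0.0558) or FlncgKO replicate 2 (0.0802). In each of these 3 genes the FlncgKO libraries did not overlap the control libraries.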

How the data were processed

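RNA was polyadenylated RNA from hearts, made into libraries with a TruSeq stranded mRNA kit. The authors mapped reads to GENCODE M22 transcripts (GRCm38.p6) and quantified them with salmon (version not given in the sources used here), then tested genes with DESeq2 1.22.2. The deposited files hold estimated counts, TPM and effective lengths (another quantity, used only for length offsets) for 140658 transcripts per library. Transcripts were joined to genes by identifier through GENCODE M21 (GRCm38), and 0.37% of transcripts, with 0.108% to 0.131% of estimated counts, had no gene and were left out. Counts were summed per gene, rounded, and tested with edgeR 4.0.16 in R 4.3.3 (TMM, filterByExpr with a minimum of 10, robust quasi-likelihood test, FlncgKO minus control, Benjamini-Hochberg over 16048 genes, threshold 0.05). The SE came from the fold change and its F value, and CPM were TMM-scaled. DESeq2 1.42.0, other scalings and filters, length offsets, a Y-linked covariate, the replicate block and leaving out each library were alternatives. Full values were given for genes past the threshold and the 4 with the smallest p in each phase, while the other genes, of which all 44 could be named, were given by level, fold change and p. Of other lists, any gene past the threshold and *Cdkn1a*, *Foxm1*, *Mybl2* and *Haspin* were named. The genes, lists and tests were chosen with earlier results of these data known. Promoter sequences came from RefSeq. DESeq2 leave-one-out fits were added after seeing the data.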

Additional observations from a re-analysis of the deposited data

How the results depend on the processing

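Among the 44 genes, the count called higher in edgeR (1) was 0 with transcript length offsets and 0 with the Y-linked covariate, 2 in DESeq2, 0 to 2 when each library was left out and 1 to 3 in DESeq2 with each library left out. The count called lower (0) was 2 in DESeq2, 0 in every edgeR fit without a library and 0 to 4 in such DESeq2 fits. For the other cell cycle genes the count higher (0) was 1 without a filter (*Cit*), 1 with the replicate block (*Cdc25b*), 5 in DESeq2, 0 to 2 with each library left out and 2 to 5 in such DESeq2 fits. Their count lower (0) was 1 without a filter (*Skp2*), 2 in DESeq2, 0 to 2 with each library left out and 0 to 4 in such DESeq2 fits. The log2 fold change of *Flnc* was -2.22 in DESeq2, -2.63 to -2.01 with each library left out, and in DESeq2 -2.11, -2.33 and -2.21 without control replicate 1, 2 and 3 and -2.08, -2.02 and -2.64 without FlncgKO replicate 1, 2 and 3. Genes with fold changes close to 0 turned sign under some settings, and the cause was not tested. The log2 fold changes that turned were those of *Ccne2* (-0.02), *Mcm6* (-0.01), *Cdk1* (-0.03), *Kif11* (-0.02) and *Cenpe* (-0.00) with total-count scaling, *Ccne2* (-0.00), *Cdk1* (-0.01) and *Kif11* (-0.00) with no low-count filter, *Ccne2* (-0.00) and *Cdk1* (-0.01) with DESeq2, *Ccne2* (-0.04) and *Cdk1* (-0.01) in DESeq2 without control replicate 3 and *Ccne2* (-0.03), *Mcm6* (-0.00), *Cdk1* (-0.04), *Kif11* (-0.04) and *Cenpa* (-0.03) in DESeq2 without FlncgKO replicate 1. Others were those of *Ccne2* (-0.01), *E2f1* (0.02) and *Cdt1* (0.02) in DESeq2 without FlncgKO replicate 2, *E2f1* (0.01), *Mcm3* (0.03), *Top2a* (0.05), *Ccnb1* (0.03) and *Bub1* (0.10) with the Y-linked covariate, *E2f1* (0.04), *Cdk1* (-0.01) and *Cenpa* (-0.02) in DESeq2 without control replicate 2, *Cdt1* (0.01), *Top2a* (0.00), *Cdk1* (-0.00), *Bub1* (0.00) and *Cenpa* (-0.02) with transcript length offsets and *Top2a* (0.00) and *Bub1* (0.05) in DESeq2 without FlncgKO replicate 3. Further turns were those of *Cdk1* (-0.01) with RLE scaling, *Cdk1* (-0.00) with the replicate block and *Cdk1* (-0.01), *Kif11* (-0.02) and *Cenpe* (-0.01) in DESeq2 without control replicate 1. With each library left out in edgeR, the log2 fold change ranged from -0.03 to 0.05 for *Ccne2*, -0.11 to 0.05 for *E2f1*, -0.07 to 0.03 for *Cdt1*, -0.04 to 0.01 for *Top2a*, -0.04 to 0.02 for *Cdk1*, -0.07 to 0.06 for *Bub1*, -0.04 to 0.03 for *Kif11*, -0.03 to 0.09 for *Cenpa* and -0.00 to 0.06 for *Cenpe*. Over all genes, edgeR called 170 higher and 40 lower, against 0 and 0 with the Y-linked covariate, 63 and 13 with length offsets, 392 and 162 without a filter, 988 and 361 in DESeq2, 1 and 0 without control replicate 1 or 2, 95 and 15 without control replicate 3, 24 and 10 without FlncgKO replicate 1, 37 and 1 without FlncgKO replicate 2, and 989 and 283 without FlncgKO replicate 3. With the replicate block edgeR called 512 and 120 over all genes and *Ccnd3* among the 44. DESeq2 with each library left out called 520 to 1292 higher and 114 to 513 lower, of 28083 to 28157 genes fitted. Same-numbered libraries had correlations of 0.0428, 0.571 and 0.605 in their deviations, and differently numbered ones -0.618 to 0.192. No label says that equal numbers share a litter, so the numbers were not taken as pairs in the main test. Whether they are pairs is left undecided by these values. With 3 libraries a group, an interval that holds 0 leaves a difference of either sign unresolved.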

Other observations

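Transcript shares within genes, chosen after their values were seen, add values that gene totals do not show. In *Cdk2*, ENSMUST00000026415, which codes for 298 residues, held 41.1%, 37.3% and 40.7% of the gene's estimated reads in FlncgKO hearts, against 50.2%, 51.5% and 50.8% in control hearts. ENSMUST00000026416, the longer form of 346 residues, held 37.3%, 35.2% and 35.2% in FlncgKO hearts, against 30.3%, 30.9% and 29% in control hearts. ENSMUST00000219099, which has no coding sequence, averaged 12.6% in FlncgKO hearts and 7.75% in control hearts. These 3 shares did not overlap between the groups. In *Mcm5*, ENSMUST00000212426 averaged 63.8% in FlncgKO hearts and 57% in control hearts, also without overlap. Across the 18 genes with at least 2 transcripts of 5% or more, 53 transcripts were compared, and 4 shares were higher and 5 lower without overlap (17%), against 11.4% of 30625 transcripts chosen the same way over all genes tested. The shares were not tested.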
